A study of Nicotiana tabacum with 12 samples.

Results

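Of 25273 gene models listed for tobacco roots, 116 stood low in the CR libraries while the other groups, TCR, TWTR and WTR, stayed close to each other. They are called here the CR-lowered models. They were chosen by their measured levels in all 12 libraries, so their low values in CR are a description with no test. L is the group mean of log2(FPKM + 1) over 3 libraries, where FPKM counts fragments per length of transcript and per sequencing total. A model was kept if its mean over 12 libraries was at least 1 and under 1000 FPKM and if its highest CR value lay below its lowest value in the other 9 libraries. L of CR also had to lie at least 1 below the smallest of the other L values, a distance called the gap, and those other L values had to lie within 1 of each other.

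Messenger RNA was sequenced from roots of Nicotiana tabacum in 4 groups of 3 libraries, coded CR, TCR, TWTR and WTR in the sample titles. The labels do not spell the codes out, and all 12 samples carry the same text, on an NtLHT1 mutant kept for 15 days in a hydroponic solution named LN. No genotype, allele, plant age or nitrogen level was therefore assigned to any code. Nothing in the labels ties the libraries to separate plants, so p-values measure only the spread between libraries, which may be technical.

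LHT1 (lysine histidine transporter) is known from Arabidopsis as a protein that carries amino acids across the plasma membrane into cells, and in its roots takes part in the uptake of organic nitrogen. Roots short of nitrogen are known to change the levels of many transcripts for the uptake of nitrate, ammonium and amino acids and for the growth of lateral roots. Tobacco is an allotetraploid, in which many genes exist as near-identical copies from its parent species, and fragments that fit several copies may be shared out between them. The table names each model by an identifier alone, made of a scaffold number and a number within it. A search of RefSeq's genes for assembly ASM71507v2 matched 0 of the 25273 identifiers. No gene name or role is therefore given to any model, no sequence is shown, and neither NtLHT1 nor marker genes of root cell types were analysed here.

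FPKM summed to between 1.10e+06 and 1.15e+06 per library. The sequencing depth itself is unknown, but the steps between low values gave a relative one. CR replicate 2 was 1.83 times as deep as CR replicate 1, and all other libraries were 0.914 to 1.14 times as deep as it. Libraries of the same group correlated at 0.972 to 0.983 over the tested models.

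The CR-lowered models were on average well expressed, and most of them kept a measurable level in CR. The median of their group means was 20.3 FPKM in CR, against 66.0 FPKM in TCR, 57.4 FPKM in TWTR and 61.9 FPKM in WTR. Added up, they made 0.511% ± 0.00554 of a library's FPKM in CR, 1.92% ± 0.0328 in TCR, 1.72% ± 0.0695 in TWTR and 1.72% ± 0.0352 in WTR (SD, n = 3 each). In bulk tissue, fewer cells of a type and less RNA per cell cannot be told apart in such values. In CR, 70 of the 116 models had at least 10 FPKM in every library and 6 lay under 1 FPKM in every library.

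**Figure D1:**
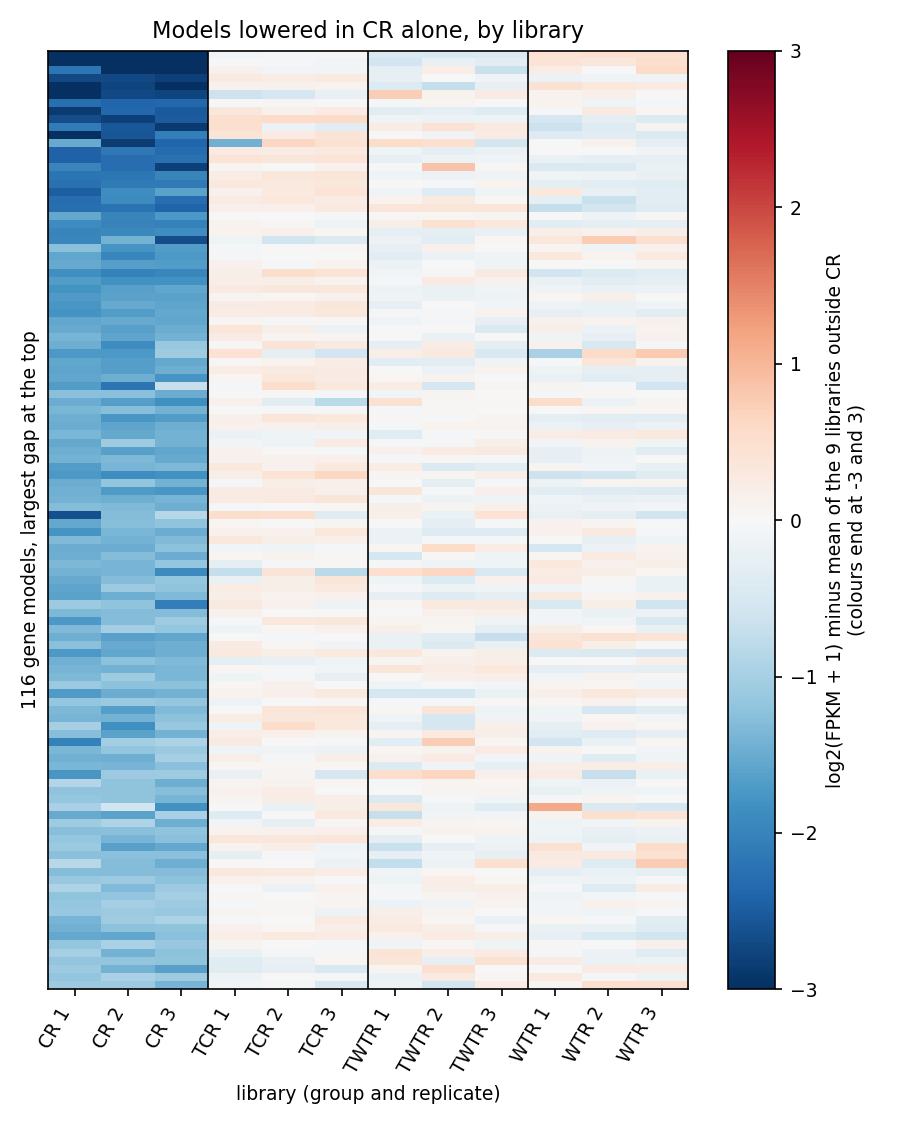
Colours give log2(FPKM + 1) of each of the 116 CR-lowered models in each library, minus its mean over the 9 libraries outside CR, with the largest gap in the top row. The 3 CR columns are low in all rows because the models were chosen for it, and the TCR, TWTR and WTR columns lie close to zero with the TCR columns more often slightly above it.

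The size of the gap varied among the models. It ran from 1.0004 to 2.76 on the log2(FPKM + 1) scale, with a median of 1.24. In 86 models the gap was under 1.5, in 15 it lay between 1.5 and 2, and in 15 it was 2 or more. On the FPKM scale, the CR mean was lower than the smallest mean of the other groups by 2.07-fold to 11.3-fold, with a median of 2.57-fold. The highest of these ratios belongs to Nitab4.5_0001186g0030, with 0, 0 and 0.56 FPKM in CR, where little signal is behind the value. Relative to the mean of the other 9 libraries, CR stood at 7.39% to 46.0%, with a median of 32.6%.

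Nitab4.5_0001039g0010 had the largest gap, 2.76. It had 4.02, 4.86 and 4.23 FPKM in CR, against 45.34, 47.28 and 49.04 FPKM in TCR, 35.2, 35.11 and 35.5 FPKM in TWTR, and 65.67, 68.46 and 67.04 FPKM in WTR. Its libraries fell into 4 groups without overlap, with CR far below and WTR highest. Nitab4.5_0001735g0060, with a gap of 2.74, had the same order at a higher level. It had 33.36, 34.52 and 32.27 FPKM in CR, against 298.1, 290.91 and 282.63 FPKM in TCR, 199.14, 256.01 and 234.64 FPKM in TWTR, and 396.99, 376.98 and 431.12 FPKM in WTR.

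The most abundant CR-lowered model was Nitab4.5_0001014g0160. It had 280.52, 226.3 and 158.34 FPKM in CR, against 1185.14, 1119.66 and 1219.45 FPKM in TCR, 1074.28, 2036.24 and 1139.91 FPKM in TWTR, and 831.62, 820.92 and 973.73 FPKM in WTR. TWTR replicate 2 stood far above the other 2 TWTR libraries. Nitab4.5_0001401g0110, the next by mean level, had 317.9, 354.71 and 389.49 FPKM in CR, against 1097.64, 1058.01 and 1075.83 FPKM in TCR, 823.24, 750.04 and 810.82 FPKM in TWTR, and 1172.64, 1038.23 and 1064.4 FPKM in WTR. Here TCR and WTR overlapped, and TWTR lay between them and CR.

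**Figure D2:**
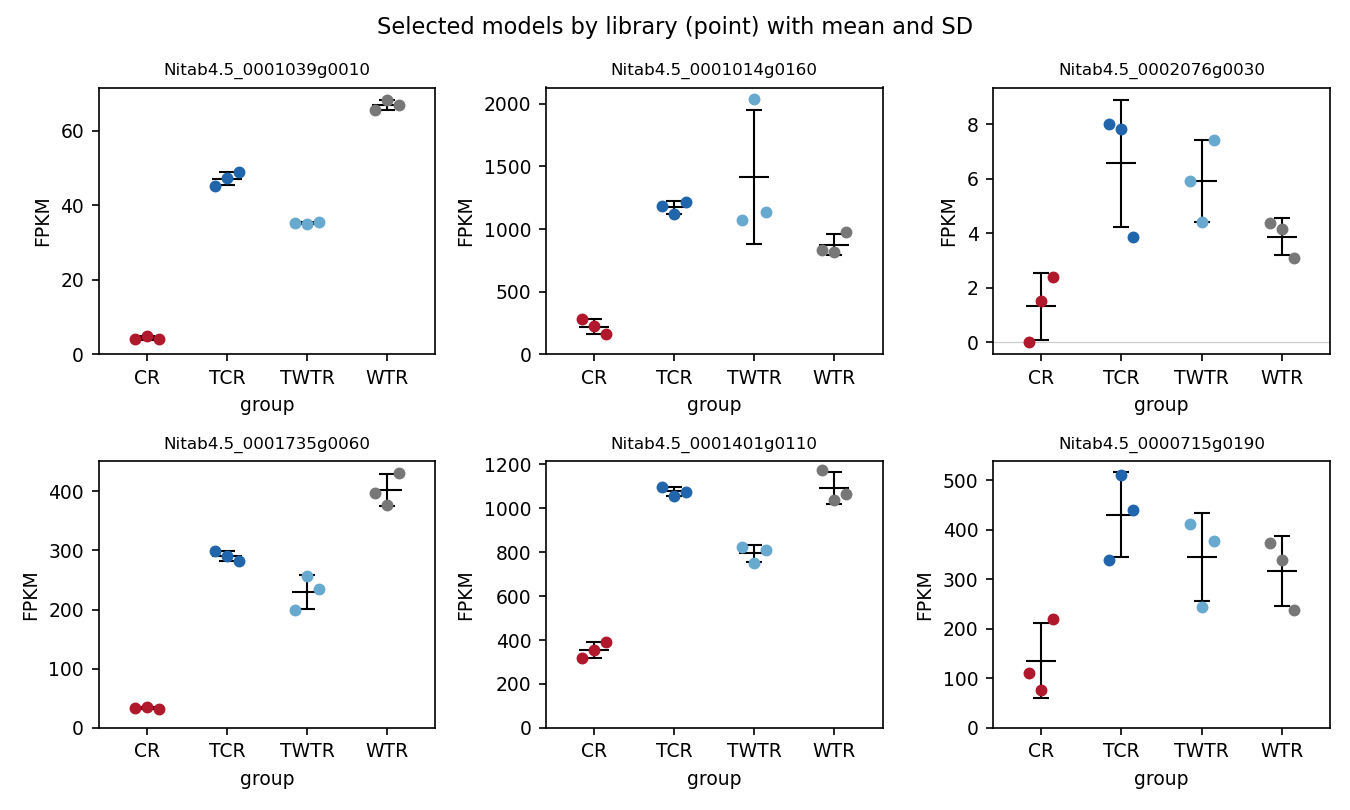
FPKM of 6 CR-lowered models by group, with each library as a point and the mean and SD as a bar: the largest gaps on the left, the highest means in the middle and the widest range among CR libraries on the right. The models on the left and in the middle stand far from CR in all other libraries, while in Nitab4.5_0000715g0190 the highest CR value, 220.43 FPKM, comes close to the lowest WTR value, 237.77 FPKM.

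Abundant models made up more of the set than of the table. With a mean of 100 FPKM or more there were 39 CR-lowered models, or 33.6% of them, and 10.8% of the 19828 models that met the rule's limits on level. At 1 to 5 FPKM there were 15 (12.9%, against 21.4%), at 5 to 20 FPKM 28 (24.1%, against 33.3%) and at 20 to 100 FPKM 34 (29.3%, against 34.5%). The rule works on log2(FPKM + 1), which understates differences of low models, and the part of the scale in these shares was not tested. The median mean level was 52.8 FPKM in the CR-lowered models and 17.1 FPKM in the 19929 tested models.

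Large gaps also lay mostly among abundant models. Of the 39 models at 100 FPKM or more, 19 had a gap of at least 1.5, against 5 of 34 at 20 to 100 FPKM, 6 of 28 at 5 to 20 FPKM and 0 of 15 below. On the plain FPKM scale the order was not the same. The median ratio of the smallest other group mean to the CR mean was 2.68-fold at 100 FPKM or more, 2.38-fold at 20 to 100 FPKM, 2.58-fold at 5 to 20 FPKM and 3.45-fold at 1 to 5 FPKM. A gap of 1 on the log2(FPKM + 1) scale asks for a larger FPKM ratio at low levels, so the rule itself raises the last of these. The 15 models with a gap of at least 2 ranged from 7.61 to 922 FPKM in mean level, and their CR means were 8.77% to 20.01% of the mean of the other 9 libraries.

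**Figure D3:**
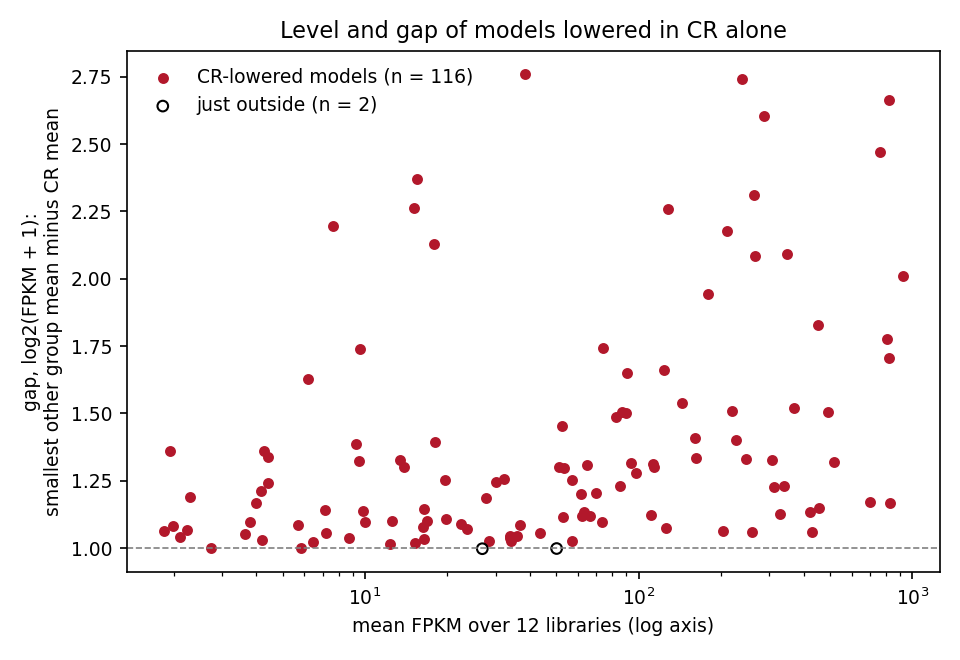
Each point is a model, placed by its mean FPKM over 12 libraries (log axis) and its gap on the log2(FPKM + 1) scale. The dashed line marks the gap of 1 that the rule asks for, and the open points are the 2 models just outside it. No model under 5 FPKM reaches a gap of 1.5.

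The limits of the rule pass through a continuous range. In all, 2312 of 19929 tested models (11.6%) lay in CR below all 9 other libraries, and this contrast is the one that chose the models. With the limits on level 2289 remained, of which 137 had a gap of at least 1, and 21 of those were dropped because the other groups lay more than 1 apart. Another 8 models met every other condition but had a mean of 1000 FPKM or more, with gaps of 1.04 to 1.95. Within 0.1 of the threshold there were 33 models inside and 32 outside.

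Just inside the threshold, at gaps of 1.0004 and 1.001, lay Nitab4.5_0002292g0020 and Nitab4.5_0000535g0120. The first had 0.857 ± 0.222 FPKM in CR, 2.73 ± 0.57 in TCR, 2.86 ± 1.04 in TWTR and 4.48 ± 0.869 in WTR (SD, n = 3 each). The second had 2.73 ± 0.285 FPKM in CR, 6.45 ± 0.393 in TCR, 7.12 ± 1.28 in TWTR and 7.07 ± 1.38 in WTR. Just outside, at 0.9983 and 0.9975, lay Nitab4.5_0000134g0030 and Nitab4.5_0003633g0010. Their means were 20.1 ± 0.831 and 14.4 ± 0.767 FPKM in CR, 61.5 ± 3.66 and 29.7 ± 1.41 FPKM in TCR, 77.6 ± 4.42 and 32.5 ± 0.96 FPKM in TWTR, and 41.3 ± 5.94 and 30.7 ± 1.56 FPKM in WTR.

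The CR libraries themselves were close to each other for most models. The rule asked that all CR values lie below the other 9 libraries, so this closeness is not read as a trait. The median SD of log2(FPKM + 1) within CR was 0.134. It was 0.120 in all models within the limits on level and on the other groups. The range of log2(FPKM + 1) over the 3 CR libraries had a median of 0.26, was under 0.5 in 90 models and was 1 or more in 8. CR replicate 1 held the lowest CR value in 43 models, CR replicate 2 in 40 and CR replicate 3 in 32 of the 115 without a tie. These are 37.4%, 34.8% and 27.8%, against 38.5%, 29.4% and 32.1% over the tested models without a tie. CR replicate 2 held the highest CR value in 35 of the 116 models (30.2%), against 33.9% over the tested models without a tie. The deeper library, CR replicate 2, was thus neither lowest nor highest throughout. Without it the rule gave 132 models, of which 106 were among the 116. Without CR replicate 1 the rule gave 122, with 106 among the 116, and without CR replicate 3 it gave 120, with 107.

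The widest range in CR was that of Nitab4.5_0002076g0030, a low model. It had 0, 1.52 and 2.41 FPKM in CR, against 8, 7.82 and 3.86 FPKM in TCR, 5.92, 4.4 and 7.42 FPKM in TWTR, and 4.36, 4.16 and 3.1 FPKM in WTR. Next came Nitab4.5_0000715g0190, which is abundant, with 110.05, 77.01 and 220.43 FPKM in CR, against 339.9, 510.9 and 440.24 FPKM in TCR, 412.66, 244.77 and 377.37 FPKM in TWTR, and 373.47, 339.11 and 237.77 FPKM in WTR. Both models also varied widely within TCR and TWTR, and CR replicate 3 came near the lowest of the other libraries.

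A value of 0 occurred in CR in 5 models. Outside CR the rule allows no 0, since every value there had to exceed the highest CR value. No model was at 0 in all 3 CR libraries. These 5 were singled out after their values were seen: Nitab4.5_0001186g0030, Nitab4.5_0002076g0030, Nitab4.5_0000288g0110, Nitab4.5_0002532g0050 and Nitab4.5_0001478g0160. CR replicate 1 was at 0 in 3 of them, CR replicate 3 in 2 and the deeper CR replicate 2 in 1. Their means over 12 libraries were 1.94, 4.41, 2.28, 1.99 and 2.24 FPKM, and the part of depth in these zeros was not tested.

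The size of a difference among TCR, TWTR and WTR does not use the CR values, but its SE and p do, since all 4 groups share 1 estimate of the spread. Tests were made on these differences, with limma over all 19929 tested models and Benjamini-Hochberg adjusted p under 0.05. The rule used the TCR, TWTR and WTR values too. Each had to lie above the highest CR value, with a gap of at least 1. The rule bounded the differences among these groups at 1 but did not set their direction. Within this bound the CR-lowered models tended to be highest in TCR. Their L was highest in TCR in 54 models (46.6%), in TWTR in 32 (27.6%) and in WTR in 30 (25.9%). Among the 17904 models that met the limits on level and had TCR, TWTR and WTR within 1 of each other, called comparison models below, these shares were 27.8%, 38.1% and 34.1%. The conditions against CR were not asked of the comparison models, and the part of those conditions in the counts below was not tested. In the CR-lowered models the lowest L of the 3 groups was in TCR in 20 (17.2%), in TWTR in 38 (32.8%) and in WTR in 58 (50%). In the comparison models these shares were 28.2%, 31.1% and 40.7%.

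In TCR minus TWTR, 27 of the 116 models (23.3%) rose and 6 (5.17%) fell. Over all tested models 7.0% rose and 6.69% fell, and over the comparison models 5.58% rose and 5.29% fell. The difference was positive in 77 models and negative in 39, with a median of 0.094 on the log2(FPKM + 1) scale, against a median of -0.015 over all tested models. Among the models called, the absolute difference ran from 0.24 to 0.82.

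The share that rose followed the level. At a mean of 20 FPKM or more, a boundary chosen after the levels were seen, 24 of 73 CR-lowered models rose in TCR minus TWTR (32.9%), against 8.59% of comparison models. Below it 3 of 43 rose (6.98%), against 2.998%. The CR-lowered models were more abundant than the comparison models (median 52.8 against 17.5 FPKM) and varied less within TCR (median SD of log2(FPKM + 1) 0.082 against 0.097). The same SD was 0.119 against 0.131 within TWTR, 0.0999 against 0.107 within WTR and 0.134 against 0.120 within CR. The part of level and spread in the count was not tested. The count of 6 that fell depended on the libraries used. It was 3 without TCR replicate 2 or without TCR replicate 3, and 3 when only TCR and TWTR entered the fit. Over all tested models the number that fell also shrank in these fits, from 1333 to 823, 915 and 979.

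Nitab4.5_0002950g0060 rose most. It had 217.42, 231.46 and 232.27 FPKM in TCR against 145.63, 137.72 and 139.62 FPKM in TWTR, while CR had 23.8, 21.36 and 26.65 FPKM and WTR 108.98, 127.53 and 117.85 FPKM. The TCR and TWTR libraries did not overlap (log2 difference 0.68, SE 0.0784, limma adjusted p 0.000206). Nitab4.5_0001271g0040 had 67.27, 68.85 and 76.82 FPKM in TCR against 43, 42.56 and 53.79 FPKM in TWTR, with 18.33, 21.42 and 22.79 FPKM in CR and 69.81, 77.52 and 73.75 FPKM in WTR. It rose by 0.61 (SE 0.102, limma adjusted p 0.00246), and its TCR and WTR values overlapped.

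The largest fall was in Nitab4.5_0001650g0120. It had 12.06, 13.25 and 16.28 FPKM in TCR against 32.64, 20.82 and 22.91 FPKM in TWTR, with 1.5, 2.11 and 2 FPKM in CR and 20.87, 21.42 and 19.14 FPKM in WTR. The log2 difference was -0.82 (SE 0.16, limma adjusted p 0.00627). Nitab4.5_0004605g0090 had 10.94, 12.04 and 10.16 FPKM in TCR against 15.38, 20.86 and 14.45 FPKM in TWTR, with 6.27, 4.78 and 4.01 FPKM in CR and 14.45, 17.27 and 17.1 FPKM in WTR. Its log2 difference was -0.56 (SE 0.157, limma adjusted p 0.037). The adjusted p passed 0.05 without TCR replicate 1 (0.0972), 2 (0.0625) or 3 (0.112), without TWTR replicate 2 (0.122) and when CR and WTR were left out of the fit (0.0531), all from limma. The difference itself lay between -0.62 and -0.40 in these 5 fits.

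**Figure D4:**
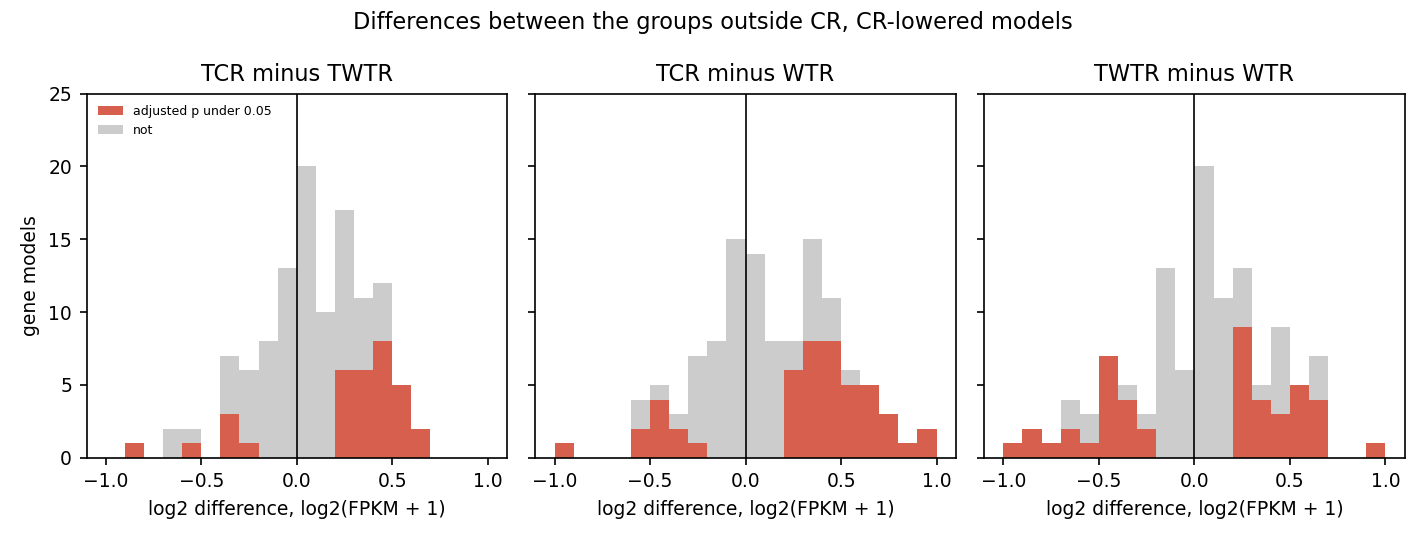
Histograms of the log2 difference, on the log2(FPKM + 1) scale, of the 116 CR-lowered models in each contrast between groups outside CR, with models at a limma adjusted p under 0.05 in red. The rule confines all of them to between -1 and 1, and in TCR minus TWTR and TCR minus WTR the red part lies mostly above zero.

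In TCR minus WTR, which shares the TCR libraries with the contrast above, 38 models (32.8%) rose and 10 (8.62%) fell. Over all tested models 15.7% rose and 11.2% fell, and over the comparison models 12.6% rose and 9.65% fell. The difference was positive in 73 models and negative in 43, with a median of 0.11, against 0.024 over all tested models. Again the rise lay with the abundant models: at 20 FPKM or more 34 of 73 rose (46.6%, against 16.8% of comparison models), and below it 4 of 43 (9.30%, against 8.97%). Of those that fell, 6 lay at or above 20 FPKM (8.22%, against 13.6%) and 4 below it (9.30%, against 6.30%). The count of 10 that fell was 5 without TCR replicate 1, 6 without TCR replicate 2 and 5 without WTR replicate 3. Over all tested models it also shrank in these fits, from 2237 to 1808, 1813 and 1778.

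Nitab4.5_0002950g0060, with the values given above, also had the largest rise here, 0.94 (SE 0.0784, limma adjusted p 3.37e-06), and its TCR and WTR libraries did not overlap. Nitab4.5_0000550g0080 followed, with 130.17, 153.09 and 176.77 FPKM in TCR against 74.6, 78.56 and 88.79 FPKM in WTR (log2 difference 0.91, SE 0.0995, limma adjusted p 3.01e-05). It had 34.44, 31.12 and 32.21 FPKM in CR and 121.22, 122.86 and 130.44 FPKM in TWTR.

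The largest fall was that of Nitab4.5_0004990g0010, a low model. It had 6.73, 4.6 and 5.29 FPKM in TCR against 9.68, 13.32 and 10.9 FPKM in WTR, with 1.18, 2.16 and 0.34 FPKM in CR and 6.47, 5.85 and 7.8 FPKM in TWTR. Its log2 difference was -0.91 (SE 0.261, limma adjusted p 0.022). The adjusted p passed 0.05 with a pseudocount of 0.1 (0.126) and without TCR replicate 2 (0.08) or 3 (0.0622) or WTR replicate 2 (0.083) or 3 (0.0526), all from limma. The difference itself lay between -1.02 and -0.80 in these 5 fits. Nitab4.5_0001650g0120 fell by 0.54 on the log2 scale (SE 0.16, limma adjusted p 0.0267). That call ended without TCR replicate 1 (0.101) or 2 (0.0776) and without WTR replicate 1 (0.0691) or 2 (0.0817), by limma, while the difference lay between -0.53 and -0.45 in these 4 fits.

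In TWTR minus WTR the counts of CR-lowered models lay closer to those of other models. Of the 116, 26 (22.4%) rose and 20 (17.2%) fell, against 20.4% and 14.9% of all tested models and 17.6% and 13.3% of the comparison models. The median difference was 0.057, against 0.038 over all tested models. Split at 20 FPKM, the shares that rose lay further apart. At or above it 23 of 73 rose (31.5%, against 22.8% of comparison models), and below it 3 of 43 (6.98%, against 13.1%). Those that fell were 16 (21.9%, against 18.8%) and 4 (9.30%, against 8.51%). Over the 3 contrasts, 66 CR-lowered models were called in at least 1 and 50 in none. No such count was made over all tested models, so it is not read as a trait of the CR-lowered ones.

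Nitab4.5_0000100g0110 rose most in TWTR minus WTR. It had 15.4, 15.32 and 15.28 FPKM in TWTR against 6.73, 7.75 and 8.79 FPKM in WTR (log2 difference 0.91, SE 0.103, limma adjusted p 2.99e-05), with 1.66, 1.77 and 1.42 FPKM in CR and 13.25, 13.09 and 14.46 FPKM in TCR. Nitab4.5_0001999g0030 had 618.98, 529.72 and 562.78 FPKM in TWTR against 369.67, 364.93 and 347.98 FPKM in WTR (log2 difference 0.66, SE 0.0728, limma adjusted p 2.36e-05), with 149, 166.53 and 177.61 FPKM in CR and 605.67, 562.73 and 605.37 FPKM in TCR. In both, all TWTR and TCR values stood above those of WTR.

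Nitab4.5_0001039g0010, the model with the largest gap, had the largest fall in this contrast, to 35.3 ± 0.204 FPKM in TWTR against 67.1 ± 1.40 FPKM in WTR (SD, n = 3 each). The difference was -0.91 on the log2 scale, with an SE of 0.0652 and a limma adjusted p of 5.86e-07. Nitab4.5_0001540g0040 had 10.09, 8.97 and 6.84 FPKM in TWTR against 15.18, 16.44 and 15.89 FPKM in WTR (log2 difference -0.82, SE 0.118, limma adjusted p 0.000195). It had 3.61, 3.1 and 3.31 FPKM in CR and 11.7, 11.46 and 11.84 FPKM in TCR, so that none of its 4 groups overlapped.

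**Figure D5:**
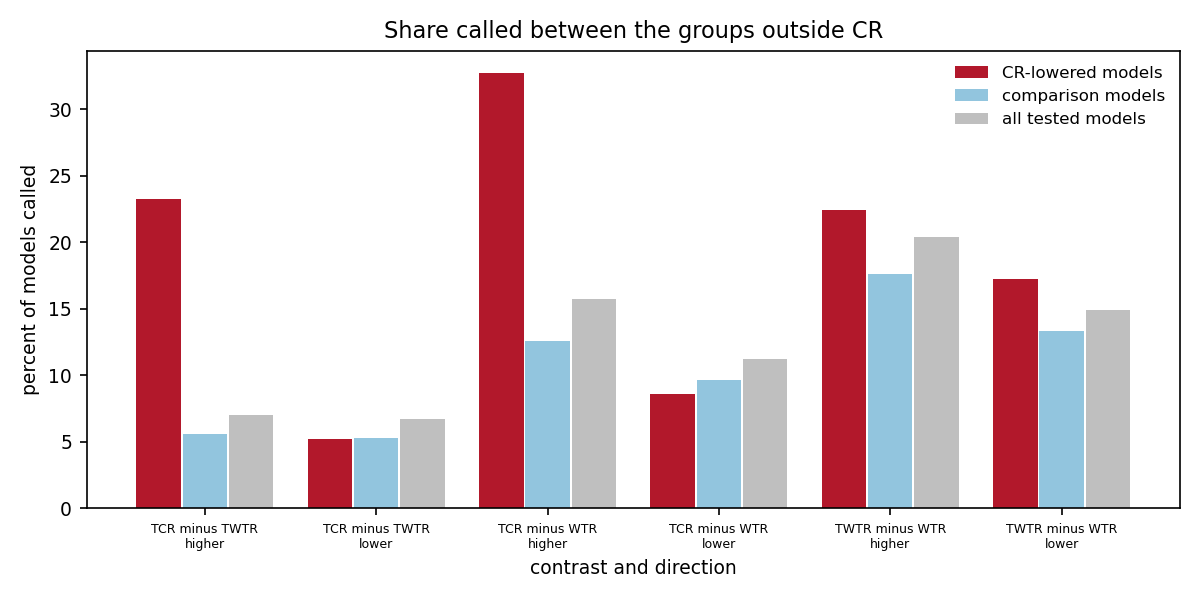
Bars give the percent of models called at a limma adjusted p under 0.05 in each contrast and direction, for the 116 CR-lowered models, the 17904 comparison models and all 19929 tested models. In TCR minus TWTR the bar of models that rose stands at 23.3% for the CR-lowered models and at 5.58% and 7.0% for the others.

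By their identifiers the CR-lowered models were spread over many scaffolds, whose places in the genome are not given. They lay on 113 of the 3170 scaffold numbers in the table, with 2 models on each of 3 scaffolds and no scaffold with more. Only Nitab4.5_0003803g0010 and Nitab4.5_0003803g0020 were next to each other. They had 9.74, 10.19 and 9.72 FPKM and 6.09, 6.12 and 5.06 FPKM in CR. Outside CR the first ranged from 20.83 FPKM in TCR replicate 1 to 25.25 FPKM in WTR replicate 2, and the second from 15.11 FPKM in TWTR replicate 1 to 16.95 FPKM in TWTR replicate 2. In neither did TCR, TWTR and WTR differ by the test (limma adjusted p of 0.303 or more in all 3 contrasts). Whether the pair are copies of a gene was not analysed here.

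The next listed models on either side of the CR-lowered ones gave 160 tested models that were not CR-lowered themselves. In 27 of these (16.9%) CR lay below all 9 other libraries, against 11.6% of all tested models, and in 9 the gap was also 0.5 or more. In 20 of them (12.5%) CR lay above all 9 others, against 15.7% of all tested models. The median of L in CR minus the mean L of the other groups was -0.085 in the neighbours and 0.011 in all tested models. The neighbour with the largest gap, singled out after its value was seen, was Nitab4.5_0000550g0060, at 0.98, beside Nitab4.5_0000550g0080. These are counts over models that share libraries and, in part, scaffolds, and no test was made of them.

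The mirrored rule, for models raised in CR alone, gave 329 models. Their gaps had a median of 1.25, against 1.24 in the CR-lowered models, and their mean level a median of 8.78 FPKM, against 52.8 FPKM. On the log2(FPKM + 1) scale a group mean that lies under 1 FPKM in every library leaves no room for a fall of 1, but room for a rise. The part of this limit in the number and level of the models was not tested. No test was made between these sets, both of which were chosen by their levels in CR.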

How the data were processed

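Root RNA of 12 libraries was analysed from 1 table of the authors' deposited FPKM, per the file headers. Per the labels' protocols, RNA was extracted with TRIzol, sequenced on a DNBSEQ-T7, cleaned with fastp, aligned with STAR, assembled with StringTie2 and compared with known genes by Cuffcompare. Genome build, annotation release, counting program and versions are not given in the sources used here. Because FPKM is relative to each library's total, highly abundant transcripts can move the values of all others.

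The members and lists were chosen with earlier results of these data known. Values were taken as log2(FPKM + 1). Models with a 12-library mean of at least 1 FPKM (19929) were fitted with limma 3.58.1 (R 4.3.3), 4 group means over 12 libraries, trend and robust options, and Benjamini-Hochberg adjustment over all tested models at 0.05. The procedure was tested on simulated data. Relative depth is the commonest ratio of values of at least 0.2 FPKM among 3433 models at 0 in 4 or more libraries. DESeq2, named by the authors, needs counts and was not used. Models were named by rule: the 2 with the largest gap without a 0, the highest mean and the widest CR range, those 2 just inside and 2 just outside the gap of 1, up to 2 called per contrast and direction, and pairs next to each other. This rule gave 21 different models. Others (those with a 0 in CR and 1 neighbour) were named after their values were seen. Gene lists by product name could not be used. Alternatives were other pseudocounts, scalings, filters, thresholds, fits and each library left out.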

Additional observations from a re-analysis of the deposited data

How the results depend on the processing

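The number of CR-lowered models depended on the scale and on the threshold. It was 68 with a pseudocount of 5, 207 with a gap of 0.8 and 64 with a gap of 1.2, in place of 116. It stayed within 1.5 times of 116 under the other settings, from 101 (mean of at least 5 FPKM) to 148 (pseudocount of 0.1), with 123 after rescaling to TPM, 125 with median-of-ratios scaling and 139 with quantile normalization. On leaving out each library it ranged from 113 to 132. In TCR minus TWTR, the models that fell numbered 3 in a fit of the 2 groups alone and 3 to 7 on leaving out libraries, in place of 6. Those that rose ranged from 21 to 29, in place of 27. In TCR minus WTR, those that fell ranged from 5 to 11 on leaving out libraries and those that rose from 33 to 39, in place of 10 and 38. In TWTR minus WTR, on leaving out libraries, 23 to 28 rose and 16 to 22 fell, in place of 26 and 20. Counts over all tested models shifted between these fits too. On leaving out libraries, 825 to 1492 rose and 823 to 1405 fell in TCR minus TWTR, in place of 1396 and 1333. In TCR minus WTR, 2504 to 3280 rose and 1778 to 2349 fell, in place of 3133 and 2237. In TWTR minus WTR, 3452 to 4149 rose and 2506 to 3003 fell, in place of 4061 and 2962. The cause of these shifts was not tested. Replicate numbers are shared between groups, but deviations of libraries with the same number correlated at only -0.0888 to 0.0991 over 18 pairs, so they were not taken as paired. With the replicate block, 27 models rose and 6 fell in TCR minus TWTR, 37 and 10 in TCR minus WTR, and 26 and 21 in TWTR minus WTR. Over all tested models the block gave 1194 and 1131, 2956 and 2084, and 3860 and 2798, in the same order. Of the named models' calls, the block ended that of Nitab4.5_0001650g0120 in TCR minus WTR (limma adjusted p 0.0518). Over the named models' contrasts and the alternatives, 15 values lost the call, 249 did not change call and 0 turned in sign. Absolute depth is unknown, which limits the models at 1 to 5 FPKM most.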
